A study of Mus musculus with 27 samples.

Results

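The kallikreins of squamous epithelium and their inhibitor Spink5 were followed through the development of the mouse esophagus. They were taken by name as Klk5, Klk6, Klk7, Klk8, Klk10, Klk11, Klk12, Klk13, Klk14 and Spink5. Of these 10 genes, 9 had a probe on the array and Klk13 had none. The 9 genes held 11 of the 41174 probes and 9 of the 28427 genes on the array, since Klk7 was read by 3 probes and every other gene by 1. Expression was measured on 27 arrays in 9 groups of 3. Wild-type (WT) C57BL/6J esophagi were collected at embryonic day 11.5 (E11.5), at E15.5, at birth (P0) and at postnatal day 7 (P7). Whole esophagi of Nrf2-/-, Keap1-/- and Nrf2-/-Keap1-/- pups on the C57BL/6J background were collected at P7, and the esophageal epithelium of WT and Nrf2-/- adults at 8 weeks. RNA of individual esophagi was labelled with Cy5 and hybridised beside a reference RNA of mouse cell lines labelled with Cy3. A level here is the log2 ratio of Cy5 to Cy3, so 0 means the same signal as the reference, and it orders the groups for 1 gene but cannot be compared between genes. In the knockouts the deleted gene is missing from every cell of the animal. Whole esophagus holds muscle, stroma, nerve and blood as well as epithelium, so fewer cells of a type and less RNA per cell cannot be told apart.

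Kallikreins are secreted serine proteases that are made as inactive precursors and switched on by cleavage, often by each other. In the epidermis they cut the proteins of the corneodesmosomes, the junctions that hold cornified cells together, so that the outermost cells are shed. Spink5 encodes LEKTI, a chain of inhibitory domains that restrains them, and loss of LEKTI causes Netherton syndrome with a thin and leaky cornified layer. The transcription factor Nrf2, encoded by Nfe2l2, is held for degradation by Keap1, and mice without Keap1 form a thickened cornified layer in the esophagus.

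Each level rests on a 60-base probe, and the probes of Klk5, Klk7 and Klk14, which act on corneodesmosomes, and of Klk8 and Klk10, which were called in Keap1-/- esophagi, are shown as examples of the stretch that was read. The array's own annotation gives their positions on chromosome 7 of the mouse build mm9. The Klk5 probe lies at 51106169 to 51106228, the Klk8 probe at 51057455 to 51057514 and the Klk14 probe at 50949743 to 50949802. The printed Klk7 probe spans 51068393 to 51068639 and the Klk10 probe 51039077 to 51039720, which is longer than 60 bases, so both cross a splice junction. They read, from 5′ to 3′:
Klk5 probe: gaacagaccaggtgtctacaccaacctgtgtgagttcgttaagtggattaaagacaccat
Klk7 probe: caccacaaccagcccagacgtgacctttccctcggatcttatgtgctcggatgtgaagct
Klk8 probe: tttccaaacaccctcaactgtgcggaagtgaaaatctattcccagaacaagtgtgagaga
Klk10 probe: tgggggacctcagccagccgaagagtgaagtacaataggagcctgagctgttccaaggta
Klk14 probe: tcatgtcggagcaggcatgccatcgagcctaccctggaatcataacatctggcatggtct
Whether each lies in coding sequence was not looked up, since no exon annotation of this build was used here.

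The 9 kallikrein genes stand side by side. On GRCm38.p6 they lie within 170 kb of chromosome 7, from 43680880 to 43851181, in the order Klk14, Klk13, Klk12, Klk11, Klk10, Klk9, Klk8, Klk7, Klk6 and Klk5, of which Klk9 is not among the genes followed. The promoters of Klk7, Klk8 and Klk12 are shown because these neighbours first stood out at different stages: Klk8 was above the reference from E11.5, Klk12 was detected from P0, and Klk7 left the level of the reference at P7. Each is the 250 bases before a transcript start that RefSeq gives (GRCm38.p6, plus strand). They lie at 43811044 to 43811293 for Klk7, 43797327 to 43797576 for Klk8 and 43768850 to 43769099 for Klk12. For Klk8 and Klk12 the first base of the gene, 43797532 and 43768891, lies inside the printed stretch, so that stretch reaches into the gene. Capitals mark CACCC or its reverse complement GGGTG, a core of the sites of Klf factors.
Klk7 promoter: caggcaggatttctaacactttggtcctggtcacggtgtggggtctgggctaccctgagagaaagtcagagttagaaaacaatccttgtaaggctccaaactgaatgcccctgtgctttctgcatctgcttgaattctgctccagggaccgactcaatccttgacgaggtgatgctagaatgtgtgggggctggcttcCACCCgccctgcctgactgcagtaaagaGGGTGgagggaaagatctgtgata
Klk8 promoter: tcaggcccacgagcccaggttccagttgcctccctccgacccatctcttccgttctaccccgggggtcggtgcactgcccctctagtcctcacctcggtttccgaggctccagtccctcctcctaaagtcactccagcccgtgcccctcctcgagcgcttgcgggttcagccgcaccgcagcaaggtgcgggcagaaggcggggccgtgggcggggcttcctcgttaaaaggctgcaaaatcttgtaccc
Klk12 promoter: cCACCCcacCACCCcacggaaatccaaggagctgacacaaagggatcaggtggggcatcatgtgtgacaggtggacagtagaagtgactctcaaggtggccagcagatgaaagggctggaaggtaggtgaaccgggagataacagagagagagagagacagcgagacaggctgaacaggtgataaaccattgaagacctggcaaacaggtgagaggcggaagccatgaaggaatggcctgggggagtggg
Within 250 bases before and 50 after the start, CACCC was found on either strand in 8 of 11 kallikrein promoters, those of 8 of 9 genes, against 57.5% of the 32851 mouse promoters in the table, and the Klk8 promoter held none. The core of the antioxidant response element bound by Nrf2, TGACNNNGC, was in 0 of the 11 and in 12.4% of all promoters. The AP-1 site TGANTCA was in 0 against 7.81%, and the TATA box TATAAA in 0 against 13.6%. A match is a description of these letters, and its absence says nothing of sites elsewhere. The Spink5 promoter was not in the table.

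Before the results, some arrays need to be named. The array labelled WT E11.5 replicate 3 correlated at 0.98 with E15.5 replicates 2 and 3 but at 0.83 and 0.77 with its own group, and the array labelled WT E15.5 replicate 1 at 0.96 and 0.93 with E11.5 replicates 1 and 2 but at 0.80 and 0.81 with its own. The labels were kept, and the counts of genes called at the stages these arrays belong to are given with and without them. A mean level of 10 stomach genes, chosen after the data were seen, was above 1 on 4 of 12 arrays at P7. These were WT replicates 1 and 2 (3.89 and 1.60), Nrf2-/- replicate 1 (1.37) and Nrf2-/-Keap1-/- replicate 2 (3.48), and the mean was at or below 0.27 on the other 8. No P7 array of another genotype shared a slide, scan or software version with the 3 Keap1-/- arrays. Genotype and those settings therefore cannot be told apart in comparisons of the Keap1-/- arrays at P7. Some adult arrays were read with the same software version. Nfe2l2 differed from WT by -3.63 in Nrf2-/- and -3.86 in Nrf2-/-Keap1-/- esophagi at P7 and by -4.30 in Nrf2-/- adults, whereas the Keap1 probe gave -0.45 in Keap1-/- (adjusted p = 0.145) and -0.99 in Nrf2-/-Keap1-/- esophagi (adjusted p = 0.0793), and where that probe lies relative to the deleted part is not known here. Between 58.9% and 69.3% of spots were well above background in Cy5, the software's own call, and no spot of the 9 genes was saturated.

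The genes came above background on all arrays of a group at different stages. In WT esophagus Klk8 and Klk7 were above background on 3 of 3 arrays at E11.5 and Klk10 from E15.5. Klk11, Klk12 and Spink5 reached 3 of 3 from P0, Klk14 from P7, and Klk5 and Klk6 only in the adult, where the tissue was epithelium. Klk7 was counted through any of its 3 probes, which were above background on 2, 2 and 0 arrays at E11.5, and it was on 2 of 3 at P0. Spink5 was above background on 2 of 3 arrays at E11.5 and 0 at E15.5. Klk5 was on 2 of 3 at P7. The number of genes above background on every array of a WT group went from 2 at E11.5 to 3 at E15.5, 5 at P0, 7 at P7 and 9 in the adult. For Klk7 this early signal was no higher than that of the reference, with levels of -0.10 to 0.41 on the 9 arrays from E11.5 to P0. An adjusted p below is from limma, with Benjamini-Hochberg adjustment over all genes of the fit, and a gene was called at 0.05 or lower.

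**Figure D1:**
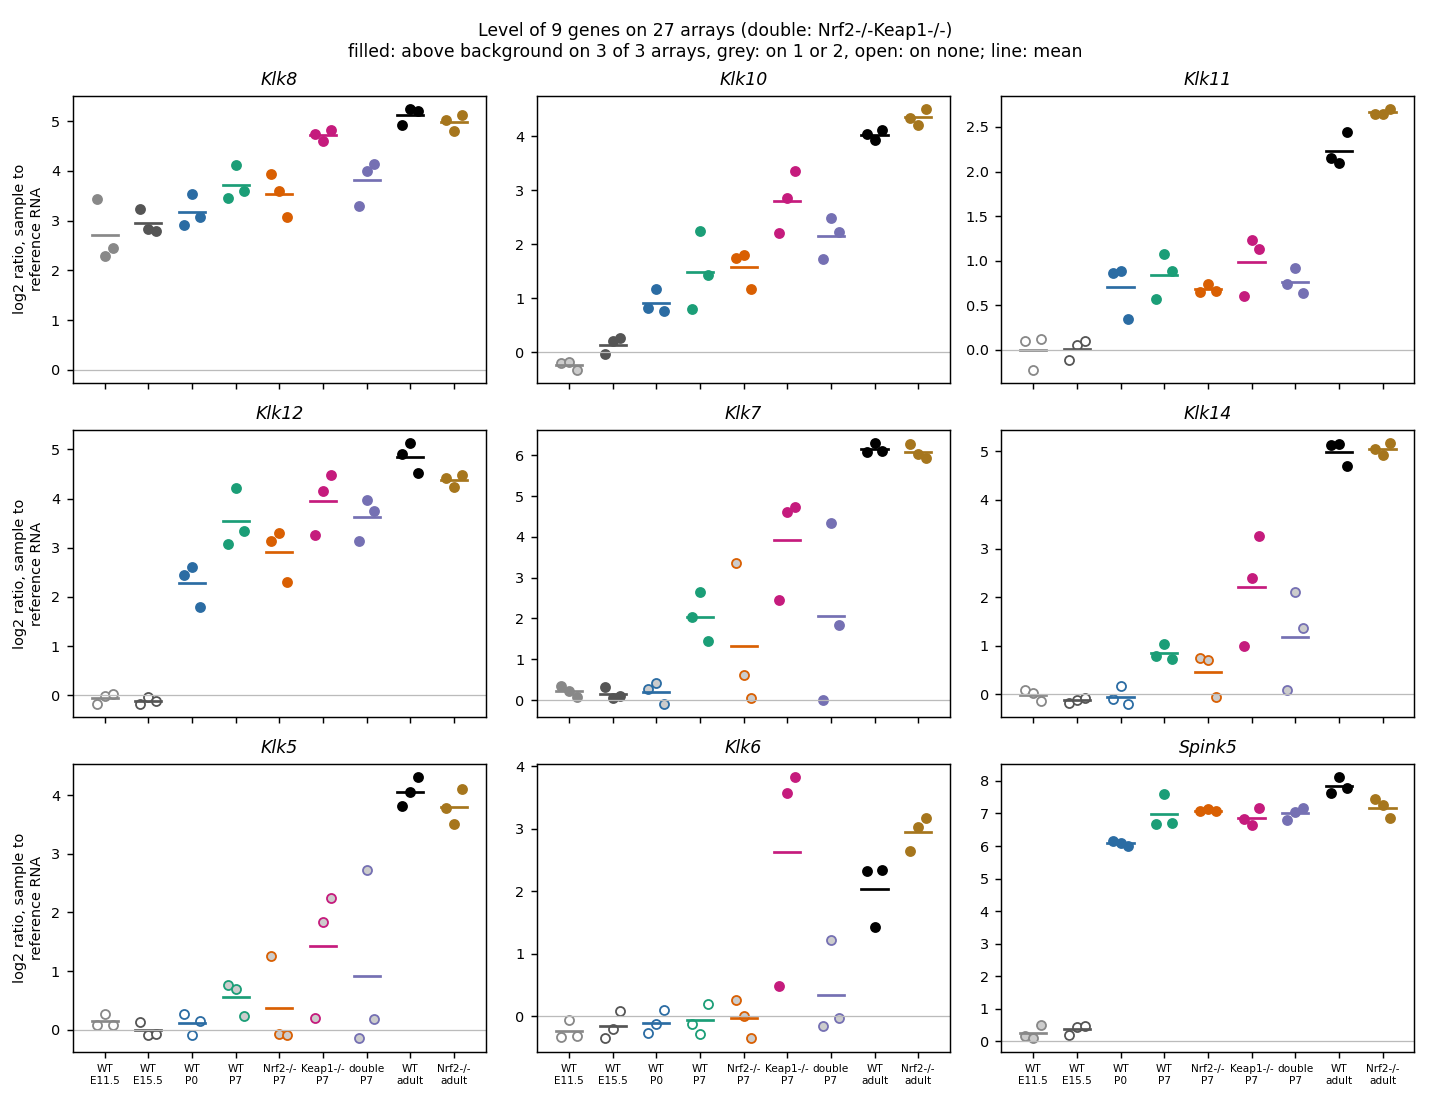
Log2 ratio of sample to reference RNA (y axis) for each of the 9 genes in the 9 groups (x axis), 1 point per array and a line at the group mean. Filled points mark groups above background on 3 of 3 arrays, grey points on 1 or 2 and open points on none. Spink5 rose at P0, Klk7, Klk14, Klk5 and Klk10 had their highest levels in the adult groups, and Klk8 was above the reference from E11.5.

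Across the 4 WT stages from E11.5 to P7 (the metaplasia phase), 6 of the 7 genes tested differed in limma's F-test, against 30.1% of all 19864 tested genes. The exception was Klk8 (adjusted p = 0.0972). Klk5 and Klk6 were above background on fewer than 3 of these 12 arrays and were not tested. None of the 7 was called between E11.5 and E15.5, where limma called 0% of all genes (the lowest adjusted p of any gene was 0.996, and 326 genes had an unadjusted p under 0.05). Without the 2 arrays that stood apart this step still called 0 of the 7, against 13.8% of all genes. Klk10 did not overlap between the groups at that step, with -0.20, -0.17 and -0.32 at E11.5 and -0.03, 0.21 and 0.26 at E15.5, as was so for 3.8% of all genes. From E11.5 to P7, 7 of 7 rose, against 16.7% of all genes higher and 30.1% called in either direction, with a median change of 1.72 beside -0.01 for all genes. Some of the 7 passed the filter on dim probes only through P0 or P7 and so had to differ, which makes that count and the count of the F-test no measure of the family. Without the 2 arrays that stood apart, 6 were called in the F-test and 6 from E11.5 to P7.

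Klk7, a chymotrypsin-like protease that digests corneodesmosin, stayed near the signal of the reference until birth. Its level was 0.33, 0.23 and 0.08 at E11.5, 0.27, 0.41 and -0.10 at P0, 2.04, 2.66 and 1.44 at P7, and 6.07, 6.30 and 6.12 in the adult. For some Klk7 probes the reference itself was not above background on any E11.5 or E15.5 array. A ratio near that of the reference does not show equal expression there. The 3 P7 arrays lay above all earlier arrays and the adult arrays above all P7 arrays. The rise from P0 to P7 was 1.86 ± 0.26 (log2, SE, n = 3 per group, adjusted p = 0.00428, or 0.225 with all 27 arrays in the fit), and the rise from P7 to the adult was 4.12 ± 0.28 (adjusted p = 5.97e-05). Its 3 probes moved the same way by different amounts: from P7 to the adult their group means went from 3.26 to 8.54, from 1.28 to 4.91 and from 1.60 to 5.05.

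**Figure D2:**
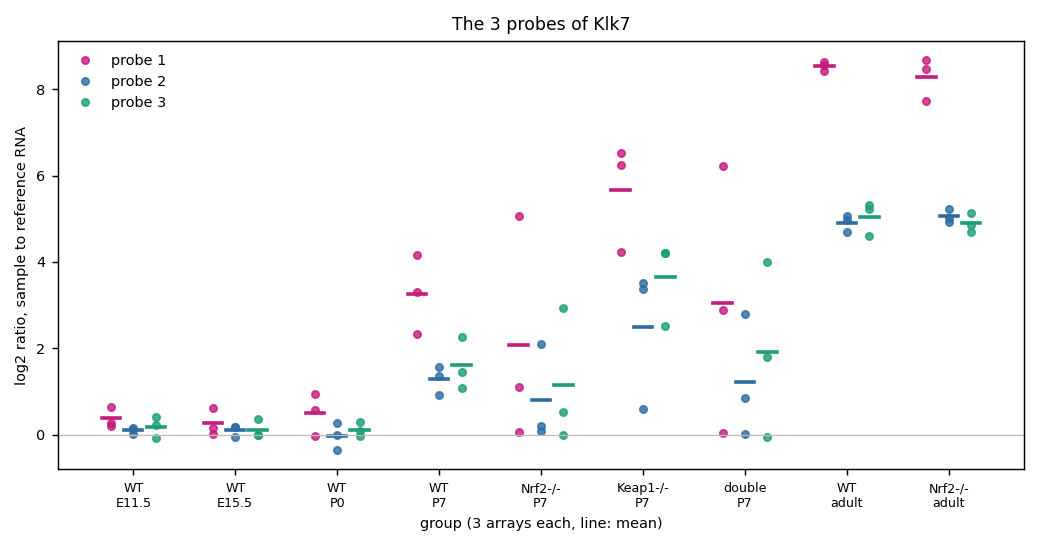
Group mean of the log2 ratio (y axis) for each of the 3 Klk7 probes over the 9 groups (x axis). Probe 1 went from 3.26 at P7 to 8.54 in the WT adult, probe 2 from 1.28 to 4.91 and probe 3 from 1.60 to 5.05, so the 3 probes kept the same course at different heights.

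Klk14, a trypsin-like protease that also cleaves the receptor Par2, was not above background on any array before P7. At P7 it read 0.79, 1.04 and 0.73, against -0.11, 0.16 and -0.20 at P0, and in the adult 5.12, 5.15 and 4.70. The groups did not overlap at either step. Its rise at P7 was 0.90 ± 0.13 (adjusted p = 0.00451), and it was at least 1.64-fold higher at P7. Klk14 entered this fit only through its 3 P7 arrays and so had to differ. Here and below such a bound, left out where it exceeded the fold of the fit, sets the mean Cy5 signal of the bright group against the lowest signal well above background on the dim arrays, and it is open to dye bias because no dyes were swapped. From P7 to the adult Klk14 rose by 4.14 ± 0.17 (adjusted p = 7.16e-06). With any of the 3 WT P7 arrays left out, Klk14 was above background on too few arrays to be tested in the metaplasia fit.

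Klk5, the trypsin-like protease that activates Klk7 and Klk14, appeared latest together with Klk6. It was 0.76, 0.70 and 0.24 at P7, above background on 2 of 3 arrays, and 3.82, 4.06 and 4.30 in the adult, a rise of 3.49 ± 0.19 (adjusted p = 2.3e-05). Klk6, a trypsin-like protease first studied in brain and also made in skin, was above background on 0 WT arrays up to P7, where it read -0.13, -0.28 and 0.21. In the adult it read 2.33, 1.43 and 2.34, at least 4.05-fold higher (fitted change 2.10 ± 0.27, adjusted p = 0.00081). Klk6 entered that test only through its 3 adult arrays and so had to differ, and with any of them left out it was not tested.

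Klk8, a trypsin-like protease also known as neuropsin, was the only one of the 9 clearly above the reference throughout. It read 3.43, 2.28 and 2.45 at E11.5, 2.91, 3.54 and 3.06 at P0, 3.46, 4.12 and 3.59 at P7, and 4.91, 5.25 and 5.21 in the adult. Neighbouring stages up to P7 overlapped, while the adult arrays lay above every earlier WT array. Its rise from E11.5 to P7 was 1.01 ± 0.30 (adjusted p = 0.0295), and it was 0.87 (adjusted p = 0.0616) without the 2 arrays that stood apart, 0.79 (adjusted p = 0.098) without E11.5 replicate 2, 0.87 (adjusted p = 0.0743) without E11.5 replicate 3, 0.81 (adjusted p = 0.101) without P7 replicate 2 and 1.07 (adjusted p = 0.0556) without P7 replicate 3. From P7 to the adult Klk8 rose by 1.40 ± 0.20 (adjusted p = 0.00126).

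Klk10, known as a gene silenced in many breast tumours, had higher means at each later WT stage, but no single step up to P7 was called. It read 0.83, 1.18 and 0.76 at P0, 0.81, 2.24 and 1.43 at P7, and 4.04, 3.93 and 4.13 in the adult. P0 lay above E15.5 without overlap, yet the change of 0.78 ± 0.29 did not pass the test (adjusted p = 0.0807, and 0.69 with adjusted p = 0.186 without the 2 arrays that stood apart). P0 and P7 overlapped (0.57 ± 0.29, adjusted p = 0.416). The total from E11.5 to P7 was 1.72 ± 0.29 (adjusted p = 0.0017), and the step to the adult was 2.54 ± 0.32 (adjusted p = 0.000821).

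Klk11 and Klk12, both trypsin-like proteases and direct neighbours, came above background together at P0. Both entered the metaplasia fit only through P0 and P7 arrays and so had to differ. Klk12 read -0.18, -0.04 and -0.12 at E15.5, 2.45, 2.62 and 1.79 at P0, 3.07, 4.21 and 3.35 at P7, and 4.90, 5.13 and 4.52 in the adult. Its rise at P0 was 2.40 ± 0.28 (adjusted p = 0.000331), at least 5.04-fold, or 2.37 (adjusted p = 0.00138) without the 2 arrays that stood apart. Each of these groups lay above the one before it without overlap. The later steps of Klk12 were 1.26 ± 0.28 from P0 to P7 (adjusted p = 0.0433) and 1.31 ± 0.30 to the adult (adjusted p = 0.0111), and the first of these lost its call without any 1 of the P0 arrays or without P7 replicate 2 or 3 (0.92 to 1.42, adjusted p 0.0636 to 0.172). With the processed signals both later steps of Klk12 were smaller and not called (0.40, adjusted p = 0.511, and 0.52, adjusted p = 0.19). Klk11 read -0.11, 0.05 and 0.10 at E15.5, 0.86, 0.89 and 0.35 at P0, 0.58, 1.07 and 0.88 at P7, and 2.15, 2.10 and 2.44 in the adult. Klk11 rose by 0.69 ± 0.18 at P0 (adjusted p = 0.0228), overlapped between P0 and P7, and rose by 1.39 ± 0.17 to the adult (adjusted p = 0.000675). The call of Klk11 at P0 was lost without E15.5 replicate 1 (0.62, adjusted p = 0.0744) or without P0 replicate 1 or 2 (0.61 and 0.59, adjusted p 0.084 and 0.0914).

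Spink5, the inhibitor, had its largest step at birth. It read 0.19, 0.44 and 0.45 at E15.5 and 6.16, 6.10 and 5.99 at P0, a rise of 5.72 ± 0.22 (adjusted p = 2.82e-07), from a group in which no array was above background. With 2 arrays above background at E11.5, Spink5 passed the filter on dim probes only with P0 and P7 arrays and so had to differ. Without the 2 arrays that stood apart the rise was 5.64 (adjusted p = 3.04e-06). The P0 arrays lay close together and far above every embryonic array. The steps after birth were smaller. Spink5 read 6.68, 7.59 and 6.71 at P7 (0.91 ± 0.22 above P0, adjusted p = 0.0657) and 7.63, 8.11 and 7.79 in the adult, without overlap at either step. The step from P7 to the adult was 0.85 ± 0.26 (adjusted p = 0.0355), and it did not hold: with WT P7 replicate 1 or 3 or any adult array left out it lay between 0.69 and 0.96 with adjusted p of 0.0572 to 0.115, and with scale normalization between arrays or with each spot's own local background it was -0.16 and -0.07. For Spink5 the change at birth was larger than both later steps, whereas for Klk7 and Klk14 the step to the adult was the larger. These differences between genes were not tested.

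From E15.5 to P0, 3 of the 7 genes tested were called and all 3 rose, against 11.3% of all genes higher and 19.7% called (2 of 7 without the 2 arrays that stood apart, Klk12 and Spink5). Klk11, Klk12 and Spink5 passed the filter on dim probes only with P0 and P7 arrays and so had to differ. This count is therefore no measure of the family. Spink5 was above background on 2 arrays at E11.5 and on no array at E15.5. On the same arrays the mean level of 6 skeletal muscle genes went from -0.12 to 2.25 at E15.5 to 3.54 to 3.98 at P0 (4 of 6 higher, with Tnnt3 by 4.03), that of 7 basal and stratified genes from 1.37 to 2.64 to 3.14 to 3.31 (1 of 6 tested higher, Perp by 2.99), and that of 6 nerve genes from 1.07 to 1.51 to 1.02 to 1.34 (1 higher and 2 lower). Their part in the result was not tested. From P0 to P7, 3 rose (Klk7, Klk12 and Klk14), against 1.48% higher and 2.43% called, and without the arrays that stood apart 4 (Spink5 too, adjusted p = 0.0421). Klk14 had to differ, as said above, so the count is no measure of the family. It rests on WT P7 replicates 1 and 2 as well, which carried stomach genes: without the arrays with stomach genes 1 WT array is left at P7, assumed to vary like the other groups, and only Klk7 was called. From P7 to the adult 9 of 9 rose, against 19.9% of all genes higher and 42.9% called, with a median of 2.10 beside 0.01 over all genes, and with 9 of 9 not overlapping, as for 55.8% of all genes. Klk5 and Klk6 passed the filter on dim probes only through the adult arrays and had to differ, so this count too is no measure of the family. That step goes from whole esophagus to epithelium, so age and tissue cannot be told apart. On the same arrays the mean level of 5 fibroblast genes went from 2.29 to 2.69 at P7 to 0.07 to 0.73 in the adult (5 of 5 lower), that of 6 skeletal muscle genes from 4.17 to 5.03 to 1.70 to 2.68 (5 of 6 lower), and that of 7 basal and stratified epithelial genes from 2.97 to 3.47 to 3.78 to 4.16 (4 of 7 higher). Smooth muscle genes went from 3.82 to 4.26 to 3.02 to 3.29 (3 of 5 lower), columnar and ciliated genes from 0.21 to 0.67 to -1.96 to -1.75 (3 of 5 tested lower), nerve genes from 0.83 to 1.35 to 0.16 to 0.24 (4 of 5 tested lower), blood cell genes from 1.74 to 2.03 to 0.12 to 0.42 (3 of 5 lower), and epidermal and hair genes from 0.48 to 1.06 to 2.61 to 2.84 (Hrnr higher by 5.18). Thyroid and salivary genes stayed between -0.42 and 0.42 over all groups. Their part in the result was not tested. The count of 9 depended on the background: with each spot's own local background 2 of 9 were called, Klk7 and Klk10.

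**Figure D3:**
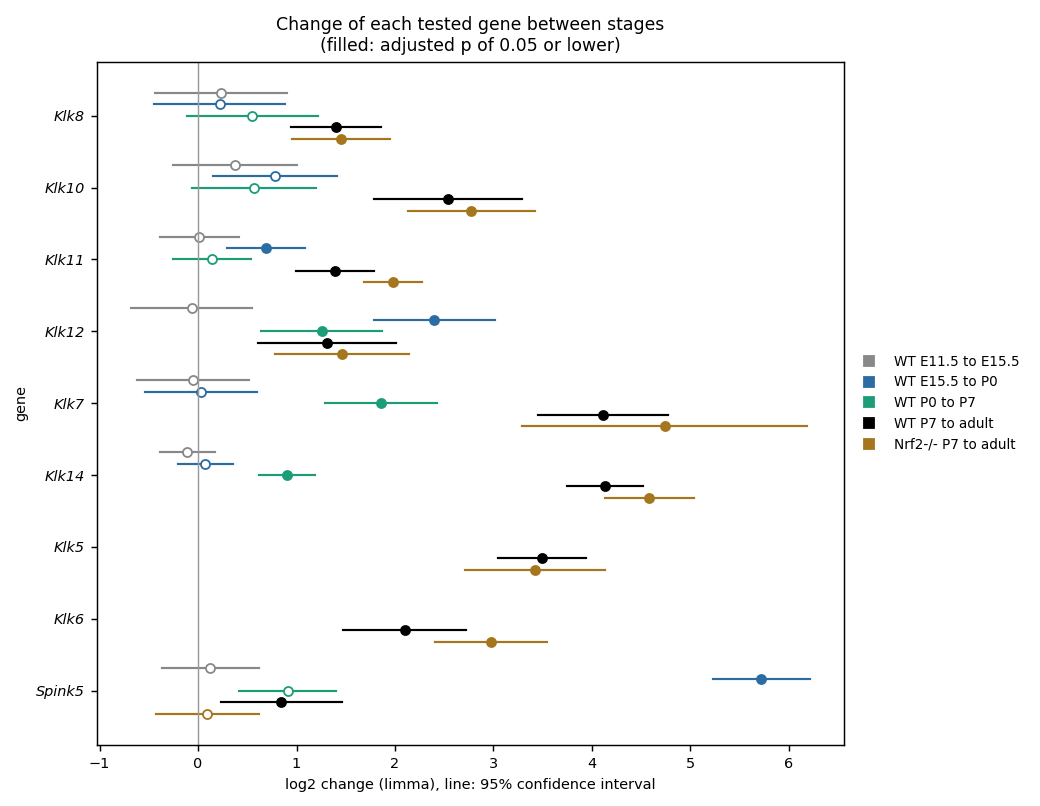
Log2 change (x axis) with its 95% confidence interval for each gene (y axis) in 5 stage comparisons, with filled circles for genes called by limma. Spink5 changed by 5.72 from E15.5 to P0 and by 0.85 from P7 to the adult, while Klk7 and Klk14 changed by 4.12 and 4.14 from P7 to the adult. Klk5 and Klk6 were not tested before the adult step.

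The Nrf2-/- esophagus took the same step from P7 to the adult with 8 of 9 higher, against 27% of all genes higher and 55% called. Klk6 was above background on 0 WT and 1 Nrf2-/- array at P7. It passed the filter on dim probes only through the adult arrays and had to differ, so this count is no measure of the family. Klk7 rose by 4.74 ± 0.66, Klk14 by 4.58 ± 0.21 and Klk5 by 3.42 ± 0.32, beside 4.12, 4.14 and 3.49 in WT. Klk6 rose by 2.98 ± 0.26, beside 2.10 in WT. Spink5 was not called (0.10 ± 0.24, 95% interval -0.43 to 0.62, adjusted p = 0.755), but this value depended on scaling and was -0.83 with the processed signals (adjusted p = 0.0246), -1.73 with scale normalization (adjusted p = 0.00478) and 0.87 with median centring (adjusted p = 0.0076). The difference between the 2 age steps was called for 0 of 9 genes, against 0.0973% of all genes. By unadjusted p, 3 of the 9 were under 0.05: Klk6 (0.88, adjusted p = 0.406), Klk11 (0.60, adjusted p = 0.297) and Spink5 (-0.75, adjusted p = 0.441).

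The other genes of the shedding pathway were read from lists in the same way, and the shares of all genes given above for each step hold for them too: 11.3% higher from E15.5 to P0, 1.48% from P0 to P7 and 19.9% from P7 to the adult. Of the corneodesmosome proteins that kallikreins cut, 2 of 4 tested rose at P0 (Cdsn by 1.17 and Dsg1a by 1.00), 3 of 4 from P0 to P7 (Cdsn by 1.51, Dsg1a by 1.32 and Dsc1 by 1.00) and 5 of 5 from P7 to the adult (median 3.03 beside 0.01 over all genes). In that last step Dsc1, a desmosomal cadherin of the upper layers, rose by 5.57, Dsg1a by 4.78 and Dsg1b by 3.03. Dsg1c passed the filter on dim probes only through the adult arrays and had to differ. The count and median of that step are therefore no measure of the list. Of the other protease inhibitors, 7 of 9 rose at P0, with Wfdc12 by 3.83, Wfdc5 by 1.98 and the matriptase inhibitor Spint2 by 1.74, which is the step at which Spink5 rose. From P0 to P7, 1 of 9 rose (Wfdc12 by 1.06) and 1 fell (A2ml1 at -1.42), and to the adult 4 of 8 rose, led by Slpi at 2.91, and 1 fell. Of the other proteases of cornifying epithelium, 6 of 11 rose at P0, among them the channel-activating protease Prss8 by 1.54, and 0 of 11 were called from P0 to P7. From P7 to the adult 4 of 10 rose and 2 fell, with Casp14, the caspase of cornification, up by 4.0.

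Among 17 other kallikrein genes on the array, Klk9, which lies inside the cluster, was 1 of 10 called from P0 to P7 (0.48) and led the 4 of 7 that rose to the adult (2.78), followed by Klk15 (1.37) and Klk1b3 (1.03). Members of the Klk1b group are near-identical copies, so their probes may read each other. Suprabasal and cornified proteins rose at P0 for 4 of 10, with Cnfn by 4.08 and Sbsn by 4.0, were called for 0 of 10 from P0 to P7, and rose for 5 of 10 to the adult, with Sbsn by 1.96 and Ivl by 1.74. Of transcription factors of the squamous layer, 2 of 8 rose at P0 (Grhl1 by 3.32 and Ovol1 by 2.05), 0 of 8 were called from P0 to P7 and 8 of 8 rose to the adult (Ovol1 by 2.66, Grhl1 by 2.26 and Pax9 by 1.84). Of the receptor and proteins on which kallikreins act, F2rl1, which encodes Par2, rose at P0 by 0.59 and Il1b by 1.01 while F2r was at -0.78, 0 of 6 were called from P0 to P7, and in the adult 1 of 6 rose (Flg by 2.42) and 3 fell, led by Camp at -3.16 and F2r at -2.00. No gene of these lists was called between E11.5 and E15.5.

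Loss of Nrf2 alone left no called difference among the 9 genes at P7, against 0.0156% of all genes called, and 0 of 9 had an unadjusted p under 0.05. The intervals were wide for the genes that varied most. Klk7 read 3.36, 0.61 and 0.04 in Nrf2-/- esophagi, and its difference from WT was -0.71 with a 95% interval of -3.16 to 1.74. Spink5 read 7.07, 7.12 and 7.07, and its difference was 0.09 with an interval of -0.40 to 0.59.

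Loss of Keap1 came with higher Klk6, Klk8 and Klk10 at P7, 3 of 9 genes, against 15.4% of all genes higher and 33.3% called. Counted in either direction this share equals the background. Klk6 passed the filter through its 3 Keap1-/- arrays, with 1 array each in Nrf2-/- and Nrf2-/-Keap1-/- and 0 in WT, and so had to differ, which makes the count no measure of the family. The median change of the 9 was 1.00 beside -0.02 over all genes. Klk6 read 0.49, 3.57 and 3.83 in Keap1-/- esophagi, above background on 3 of 3 arrays, and -0.13, -0.28 and 0.21 in WT, above background on none. The groups did not overlap (2.69 ± 0.72, adjusted p = 0.0155), with replicates 2 and 3 of Keap1-/- above every WT adult array. Klk8 read 4.74, 4.60 and 4.82 against 3.46, 4.12 and 3.59, without overlap (1.00 ± 0.26, adjusted p = 0.0148). Klk10 read 2.20, 2.87 and 3.36 against 0.81, 2.24 and 1.43, with 1 Keap1-/- array below the highest WT array (1.32 ± 0.38, adjusted p = 0.0214).

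The remaining genes were not called in Keap1-/- esophagi. Klk7 read 2.44, 4.61 and 4.74, a difference of 1.89 with an interval of -0.56 to 4.33 (adjusted p = 0.217). Klk14 read 0.99, 2.40 and 3.25, a difference of 1.36 with an interval of 0.11 to 2.61 (adjusted p = 0.0884). Klk5 read 0.20, 1.83 and 2.25 and differed by 0.86 (adjusted p = 0.397). Spink5, Klk11 and Klk12 lay close to WT, at -0.12, 0.14 and 0.42, and the interval for Spink5 was -0.62 to 0.37. With the processed signals of the scanner software, however, Spink5 was lower (-1.13, adjusted p = 0.0044) and Klk11 higher (1.65, adjusted p = 0.000465). Keap1-/- replicate 1 was the lowest of its group for Klk5, Klk6, Klk7, Klk10, Klk11, Klk12 and Klk14, and replicate 2 for Klk8 and Spink5.

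The calls in Keap1-/- esophagi rested on single arrays. Without Keap1-/- replicate 3 none of Klk6, Klk8 and Klk10 was called (adjusted p 0.0673, 0.0525 and 0.0901), without WT replicate 1 only Klk6 was, without Keap1-/- replicate 2 only Klk8 was, without WT replicate 3 Klk10 was not (adjusted p = 0.0562), and without Keap1-/- replicate 1 Klk14 was called as well (1.97, adjusted p = 0.0128). Without the arrays with stomach genes, Klk6, Klk8 and Klk10 were higher by 2.42, 1.13 and 1.38 and not called (adjusted p 0.199, 0.0649 and 0.0843), with 1 WT array left. Markers of other cells moved with the genotype too. The mean level of 5 fibroblast genes was 0.78 to 1.28 in Keap1-/- and 2.29 to 2.69 in WT esophagi (5 of 5 lower), that of 6 columnar and ciliated genes was -1.77 to -1.57 against 0.21 to 0.67 (3 of 6 lower, Krt19 at -6.37 and Krt8 at -4.11), and that of 5 smooth muscle genes 2.73 to 3.41 against 3.82 to 4.26 (4 of 5 lower and 1 higher). The mean of 7 basal and stratified genes was 3.37 to 3.60 against 2.97 to 3.47, with Krt14 higher by 0.98 and Dsp by 0.53. Of skeletal muscle genes, Acta1 was higher by 0.95 and Tnni2 by 0.59. Of blood cell genes, Hba-a1 was higher by 0.64, while Ptprc was at -0.43 and Cd68 at -0.40. The nerve gene Mbp was at -0.80. Their part in the result was not tested.

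Without Nrf2 the Keap1 loss gave no call. In Nrf2-/-Keap1-/- esophagi 0 of 9 genes differed from WT, against 0.458% of all genes, with 0 of 9 at an unadjusted p under 0.05. Klk6 read -0.16, 1.22 and -0.02, Klk8 3.30, 3.99 and 4.14, and Klk10 1.74, 2.50 and 2.24. Klk10 differed from WT by 0.66 with an interval of -0.17 to 1.5, and Klk6 by 0.41 with an interval of -1.18 to 2.00. Set against Nrf2-/-Keap1-/- directly, Keap1-/- esophagi had higher Klk6 (2.28 ± 0.72, adjusted p = 0.032) and Klk8 (0.91 ± 0.26, adjusted p = 0.0223), 2 of 9 genes against 15.1% of all genes higher and 33.3% called. Klk6 entered through the Keap1-/- arrays here too, so this count is likewise no measure. Neither Klk6 nor Klk8 was called without Keap1-/- replicate 3 (adjusted p 0.129 and 0.0729) or without Nrf2-/-Keap1-/- replicate 1 (0.105 and 0.0875), and Klk6 alone lost its call without Keap1-/- replicate 2 (0.12) or Nrf2-/-Keap1-/- replicate 3 (0.0919). Both comparisons share the Keap1-/- arrays. Nrf2-/-Keap1-/- and Nrf2-/- esophagi differed in 0 of 9 genes and in 0% of all genes by limma (1207 genes had an unadjusted p under 0.05, and none of the 9).

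The test of whether the Keap1 effect itself depended on Nrf2 did not call any of the 9 genes, against 15.1% of all genes. The difference was 2.32 for Klk6 (adjusted p = 0.152), the only one of the 9 with an unadjusted p under 0.05, and 0.72 for Klk8 (adjusted p = 0.225). Without Keap1-/- replicate 1, the lowest of its group for Klk6, the difference for Klk6 was 3.39 (adjusted p = 0.00146). That was the only 1 of 26 alternatives that called Klk6 here, and adjusted p reached 0.393 in the others. Klk6 entered this fit through the Keap1-/- arrays, as said above. For Klk11, whose Keap1-/- values were close to WT here, the same difference was 1.46 with the processed signals of the scanner software (adjusted p = 0.0148), against 0.06 with an interval of -0.47 to 0.59.

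**Figure D4:**
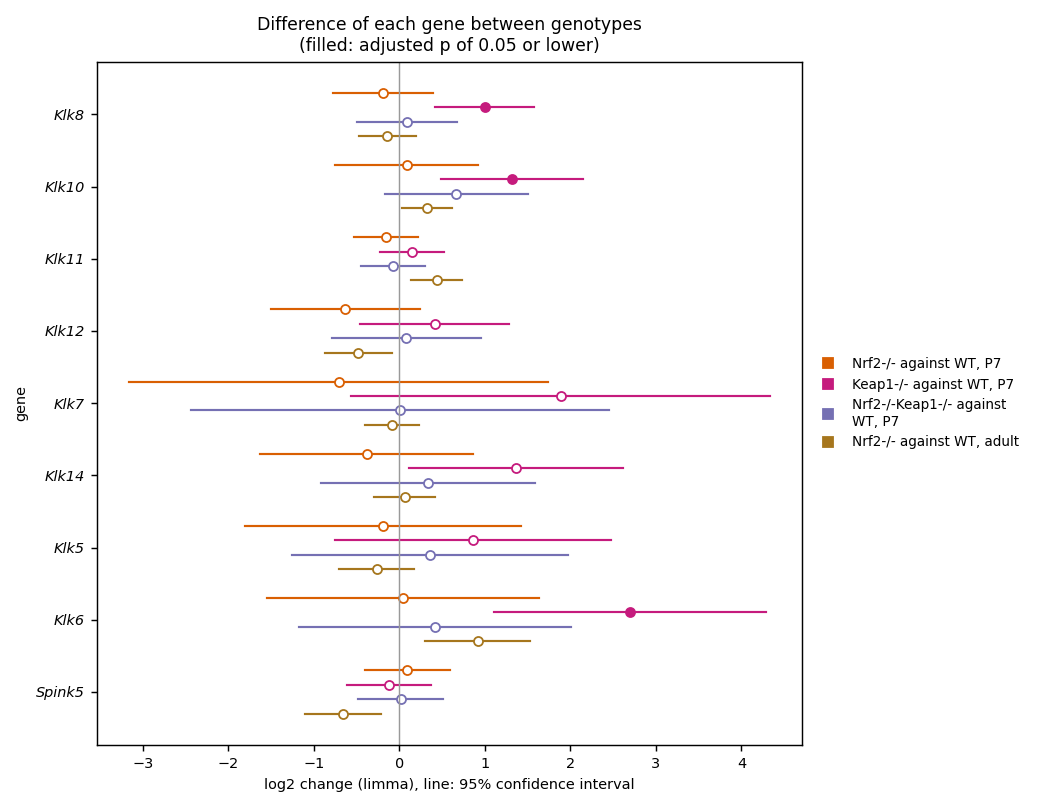
Log2 difference (x axis) with its 95% confidence interval for each gene (y axis) for Nrf2-/-, Keap1-/- and Nrf2-/-Keap1-/- against WT at P7 and for Nrf2-/- against WT in adults, with filled circles for genes called by limma. Called genes were Klk6, Klk8 and Klk10 in Keap1-/- esophagi, at 2.69, 1.00 and 1.32, and intervals were widest for Klk7.

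Other genes of the shedding pathway in Keap1-/- esophagi included 3 of 4 corneodesmosome genes higher (Dsc1 by 3.83, Dsg1b by 2.32 and Cdsn by 2.13) and 3 of 10 inhibitors higher (A2ml1 by 2.85, Slpi by 2.78 and Cst6 by 1.64), against 15.4% of all genes higher and 33.3% called. Of the other proteases of cornifying epithelium 3 of 10 were higher and 3 lower, with Casp14 at 2.74, the lysosomal protease Ctsd at 1.79 and Tmprss11d at -1.5. Of the other kallikreins 3 of 10 were higher, each of the Klk1b group: Klk1b16 by 2.39, Klk1b5 by 2.09 and Klk1b26 by 2.01. Suprabasal proteins were mixed, with 3 of 10 higher and 1 lower (Sbsn at 1.32, Tgm3 at 0.88 and Ivl at -0.97), as were transcription factors, with 2 of 8 higher and 1 lower (Ovol1 at 1.36, Klf4 at 0.82 and Sox2 at -0.72). Of the receptor and proteins acted on, 0 of 6 were higher and 2 lower, Tslp at -0.94 and F2r at -0.68. In Nrf2-/-Keap1-/- esophagi Klk1b16 (1.52) was the only gene of these lists called against WT, and in Nrf2-/- esophagi none was.

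Within a genotype at P7, replicates differed strongly for some of the proteases. The SD within groups, pooled over the 4 genotypes, was 1.58 for Klk7, which ranked 76 of 19201 genes, 1.04 for Klk5, 1.02 for Klk6 and 0.80 for Klk14, beside a median of 0.18 over all genes. It was 0.55 for Klk12, 0.53 for Klk10, 0.36 for Klk8, 0.30 for Spink5 and 0.22 for Klk11. In adult epithelium the same SD was 0.15 for Klk7, below the median of 0.18. In Nrf2-/-Keap1-/- esophagi, for example, Klk7 read -0.01, 4.33 and 1.84, so that replicate 2 lay within the range of Keap1-/- esophagi and replicate 1 at the level of the embryo.

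In the 3 knockout genotypes the highest and lowest arrays of Klk5, Klk6, Klk7 and Klk14 were the same. They were highest on Nrf2-/- replicate 1, Keap1-/- replicate 3 and Nrf2-/-Keap1-/- replicate 2, and lowest on replicates 3, 1 and 1. In WT they were not shared: Klk7 and Klk14 were highest on replicate 2, Klk5 on replicate 1 and Klk6 on replicate 3. Some genes of the cornified layer had a like spread: Hrnr had a pooled SD of 2.18, Flg 1.81, Krt10 1.41, Dsc1 1.35 and Dsg1a 1.32. Others varied less, among them Ivl (0.40), Dsg1b (0.33), Lor (0.29), Tgm3 (0.27), Cnfn (0.18) and Tgm1 (0.17). Hrnr, which encodes hornerin, read 4.81, 1.19 and -0.03 in Nrf2-/-, 1.21, 4.69 and 4.93 in Keap1-/- and 0.00, 5.40 and 2.96 in Nrf2-/-Keap1-/- esophagi, in the order of Klk7 within each of these genotypes. In WT the order differed, with Hrnr at 3.50, 2.94 and 1.46 and Klk7 at 2.04, 2.66 and 1.44. The mean of the stomach genes was high on Nrf2-/- replicate 1 (1.37) and Nrf2-/-Keap1-/- replicate 2 (3.48) and near or below 0 on every Keap1-/- array (-0.30 to -0.22), where Klk7 ranged from 2.44 to 4.74. The part of tissue from the stomach end in this spread was not tested.

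**Figure D5:**
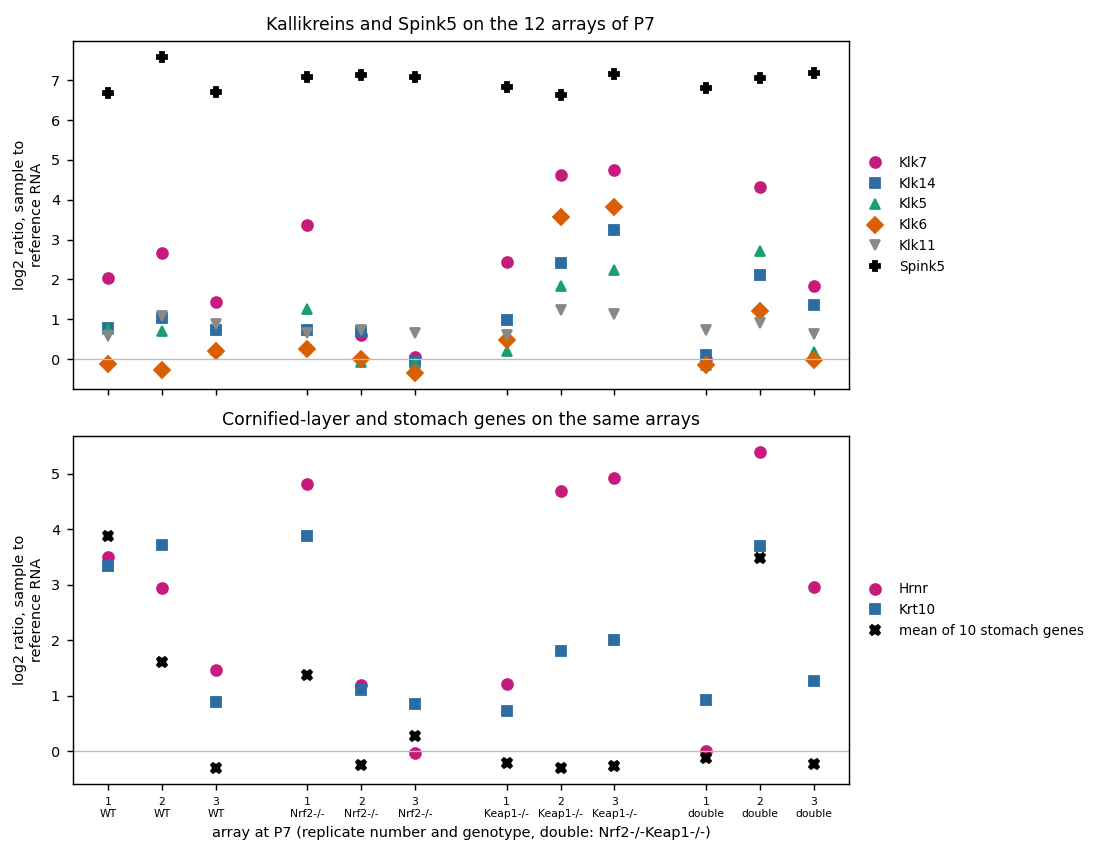
Log2 ratio (y axis) on each of the 12 arrays at P7 (x axis), with Klk7, Klk14, Klk5, Klk6, Klk11 and Spink5 above and Hrnr, Krt10 and the mean of 10 stomach genes below. Klk7 ran from -0.01 to 4.74 and Hrnr from -0.03 to 5.40, while Spink5 stayed between 6.64 and 7.59. The stomach genes were above 1 on 4 arrays, none of them Keap1-/-.

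In adult epithelium, where replicates were closer, loss of Nrf2 left 0 of 9 genes called by limma, against 0.446% of all genes, while 5 had an unadjusted p under 0.05 and did not overlap between the genotypes, as was so for 22.6% of all genes. Klk6 read 2.64, 3.03 and 3.17 in Nrf2-/- and 2.33, 1.43 and 2.34 in WT adults (0.91 ± 0.26, adjusted p = 0.176). Klk10 differed by 0.32 (adjusted p = 0.267) and Klk11, at 2.65, 2.64 and 2.71 against 2.15, 2.10 and 2.44, by 0.43 (adjusted p = 0.181). Lower values were those of Klk12, 4.42, 4.23 and 4.47 against 4.90, 5.13 and 4.52 (-0.48, adjusted p = 0.232), and of Spink5, 7.45, 7.25 and 6.85 against 7.63, 8.11 and 7.79 (-0.66 ± 0.19, adjusted p = 0.176). The other 4 differed by -0.27 (Klk5), -0.08 (Klk7), -0.14 (Klk8) and 0.06 (Klk14), and the interval for Klk7 was -0.40 to 0.23.

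Within the scan that held both adult genotypes (WT replicate 3 against Nrf2-/- replicates 1 and 2) the values of the genes that did not overlap kept their signs and were smaller: 0.49 for Klk6, 0.15 for Klk10, 0.20 for Klk11, -0.20 for Klk12 and -0.44 for Spink5. Klk5 (-0.66), Klk8 (-0.30) and Klk14 (0.29) differed by more than over all adult arrays, and Klk7 (0.03) changed sign. With each spot's own local background kept, Klk6 was called (2.31, adjusted p = 0.0327). The mean of 5 blood cell genes was 0.80 to 0.89 in Nrf2-/- and 0.12 to 0.42 in WT epithelium, with Hba-a1 called at 0.99, and that of 5 fibroblast genes 0.43 to 0.78 and 0.07 to 0.73. The mean of 6 skeletal muscle genes was 2.67 to 3.63 in Nrf2-/- and 1.70 to 2.68 in WT epithelium. That of 5 smooth muscle genes was lower in Nrf2-/-, at 2.97 to 2.99 against 3.02 to 3.29. Their part in the result was not tested. None of the genes of the pathway lists was called between the adult genotypes.

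Read over all 9 group means, the genes shared a course with exceptions. For Klk7, Klk14, Klk5 and Klk10 the embryonic and P0 groups had the lowest means, the P7 groups came next, and both adult groups stood apart above every P7 group. For Klk6 the Keap1-/- mean of 2.63 stood between the WT adult (2.03) and the Nrf2-/- adult (2.95), and these 3 overlapped. For Klk8 the Keap1-/- mean (4.72 ± 0.11, SD, n = 3) stood apart from the other P7 groups and overlapped the Nrf2-/- adult (4.98 ± 0.17). For Spink5 the 4 P7 genotypes lay between 6.87 and 7.09 and their arrays overlapped.

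Pearson correlations over the 9 group means describe how alike these courses were; the means share arrays and normalization, so no p is given. Klk5 and Klk14 were the most alike pair (0.995) and Klk6 and Spink5 the least (0.493), and Spink5 was closest to Klk12 (0.953), the protease that rose most at birth. Each gene's correlation with the mean standardized course of the 9 was 0.995 for Klk10, 0.984 for Klk8, 0.980 for Klk7, 0.959 for Klk11, 0.958 for Klk14, 0.937 for Klk5, 0.903 for Klk12, 0.891 for Klk6 and 0.757 for Spink5. Among 20897 other genes the courses most like that mean were those of Rps2-ps4 (0.998), Fam57a (0.997), Hsdl2, Ces2f and Mrpl14 (0.996 each).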

How the data were processed

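The study hybridised Cy5-labelled esophageal RNA beside Cy3-labelled Universal Mouse Reference RNA on 27 Agilent arrays. The authors deposited, per spot, mean and local background intensities in both colours and intensities already background-subtracted, detrended and dye-normalized by Agilent Feature Extraction. They also deposited log10 ratios of Cy5 to Cy3, which equalled the software's ratios within 0.005. The submitters' processing notes name Agilent Feature Extraction 9.1, the file headers versions 10.5.1.1 and 10.7.3.1, and the methods another scanner software. No array was repeated with the dyes exchanged.

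Mean intensities were corrected by normexp (offset 50), and 43 spots with a local background over 5 times their array's median took that median. Ratios were normalized by loess within each array on the log2 scale, control spots at weight 0, and averaged over spots of a probe and then over probes of a gene. Spots marked as outliers were kept, since the marks fell on 12.3% of the values of these genes on the 20 arrays read with the older version and on 1.3% on the 7 read with the newer. Of 41174 probes, 27434 were named through their RefSeq accession and 13740 by the files alone. A gene was tested if any of its probes exceeded Cy5 background (the software's call) on 3 or more arrays of the fit, with limma 3.58.1 in R 4.3.3 (statmod 1.5.0, package data.table, version 1.17.8): the metaplasia phase, the P7 genotypes and both ages with 12 arrays each, P7 against adult in WT and the adult genotypes with 6 each. p-values were adjusted by Benjamini-Hochberg over all genes of a fit. limma replaced the SAM of the methods. On simulated data with 200 changed genes, 64% of changes of 1 (log2) and 93% of changes of 2 were recovered from P0 to P7, 80% and 98% for Keap1-/- against WT, and 85% and 100% in adults.

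The labels call the 3 arrays of a group biological replicates. Replicate numbers did not pair samples: same-numbered arrays correlated at -0.45 to 0.64 in the metaplasia fit. The number of arrays limits precision. The genes and lists were chosen with earlier results of these data known. All genes followed were reported in every comparison, and from each list at most the 3 called genes with the largest change. The lists were corneodesmosome substrates, other kallikreins, proteases, inhibitors, the receptor and proteins acted on, suprabasal proteins, transcription factors, and markers of basal, columnar, smooth and skeletal muscle, fibroblast, nerve, blood, thyroid and salivary, and epidermal cells. Grhl3 and Krt77 were not on the array.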

Additional observations from a re-analysis of the deposited data

Results flagged for a closer look

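Among the genes of the pathway lists, the effect of losing Keap1 differed between esophagi with and without Nrf2 at P7 for 13 genes that the list rule names (limma's interaction term, adjusted p 0.0022 to 0.0498). The slide, scan and software version of the Keap1-/- arrays were shared by no other genotype at P7. The difference in the Keap1 effect and those settings therefore cannot be told apart. Larger effects with Nrf2 present were found for the other kallikreins Klk1b26 (2.17) and Klk1b16 (1.92), for the corneodesmosome gene Dsg1b (2.17), for the proteases Casp14 (2.61) and Ctsd (1.61), for the inhibitors A2ml1 (3.14), Slpi (2.44) and Cst6 (1.40), and for the suprabasal genes Tgm3 (1.03), Cnfn (0.96) and Krt13 (0.90). The difference was negative for Tmprss11d (-1.95) and Tslp (-0.92). None of the 9 genes followed was called in this test.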

How the results depend on the processing

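The counts of the 9 genes called changed as follows. With both channels well above background on 60% of arrays, fewer genes were tested and the counts were 2 in the F-test (6 as reported), 0 from E15.5 to P0 (3), 1 from P0 to P7 (3), 3 between E11.5 and P7 (7) and 1 for Keap1-/- against Nrf2-/-Keap1-/- (2). With each spot's own local background, 1 was called from E15.5 to P0, 2 from P7 to adult in WT (9), 1 in the difference of the age steps (0; Klk6) and 1 between adult genotypes (0; Klk6). Median centring gave 1 from P0 to P7 and 4 between E11.5 and P7. With outlier-marked spots left out, fewer genes had values and 5 were called from P7 to adult in WT and 5 in Nrf2-/- (8). The processed signals and the deposited ratios each gave 5 for Keap1-/- against WT (3) and 1 in the difference of the Keap1 effect (0; Klk11). A fit of only the groups compared gave 1 for Keap1-/- against WT and 1 against Nrf2-/-Keap1-/-, and a minimum of 2-fold gave 1 for the latter. Without the P7 arrays with stomach genes (added after the data were seen) the count from P0 to P7 was 1, that between E11.5 and P7 was 4, and that for Keap1-/- against WT was 0. Except where a result is named, the cause was not tested.

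Leaving out each array in turn gave 5 to 7 in the F-test, 2 to 3 from E15.5 to P0, 1 to 2 from P0 to P7, 5 to 7 between E11.5 and P7, 7 to 9 from P7 to adult in WT, 8 in Nrf2-/-, 0 to 4 for Keap1-/- against WT, 0 to 4 against Nrf2-/-Keap1-/-, 0 to 1 in the difference of the Keap1 effect, and 0 in every other comparison. The replicate number as a block changed no count, for example 3 for Keap1-/- against WT and 9 from P7 to adult in WT.

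Spink5 reversed from P7 to adult in WT with own local backgrounds (-0.0704) and scale normalization (-0.16), and that call held in 9 of 22 alternatives. Also reversed were Tmprss11d (-0.33) and Dsp (-0.20) in WT with own local backgrounds, Tagln (0.45, median centring) and Lor (-0.99, scale normalization) in Nrf2-/- from P7 to adult, and Nfe2l2 in Keap1-/- against WT (1.07 with outlier-marked spots left out, 0.0447 with median centring). Of all values of the 9 genes that were called as reported, over the alternatives 670 kept direction and side of the threshold, 98 lost their call and 2 reversed. Median centring moved the median change of all genes to 0.40 between adult genotypes. Scan as a random block was not run for Keap1-/- comparisons, since scan and genotype cannot be told apart.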
